A study of Cocos nucifera with 22 samples.

Results

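The 3 genes described here encode chlorophyll a-b binding proteins of the coconut chloroplast and are called CAB2, LHCA2-1 and LHCA4. They were picked by locus tag from a table of the study, with earlier results of these data known, for a difference between 2 coconut varieties. They were 3 of the 25247 genes listed in any of 22 leaf libraries, and all 3 were among the 18840 that passed the filter on low counts. The table itself held genes that the study had sorted by their time course in the Hainan tall. The comparison of the varieties and the time course of the tall had therefore both been used in choosing the genes, and their values are given as a description with no test. The change from 0 h in the Aromatic dwarf was tested, but it is not independent of the choice, since every dwarf library also stands in the comparison of the varieties.

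The leaves came from young seedlings of the Hainan tall and of the Aromatic dwarf (cultivars Hainan Tall (DB) and Aromatic Coconut (XS) in the labels), grown in containers in a greenhouse. Seedlings of both varieties were watered weekly with dilute Murashige and Skoog medium that carried 200 mM NaCl from time 0 on, with a second salted watering between the last 2 samplings. Later leaves, from 4 h, 6 days and 10 days of salt, are set here against those of 0 h, the control. The study replicated over 3 seedlings. At each of the first 3 times there were 3 samples per variety, and at 10 days there were 2. Samples with the same number came from the same leaf. No unsalted leaves after 0 h are described, so salt cannot be told apart from the hour of the day or the time elapsed. Libraries summed to between 2977359 and 3445467 expected counts. All 3 dwarf libraries of 0 h were on flow cell AV and all libraries of 10 days were on AW.

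Chlorophyll a-b binding proteins are encoded in the nucleus, imported into the chloroplast and inserted into the thylakoid membrane, where they hold chlorophyll and pass light energy to the reaction centres. The LHCB proteins serve photosystem II, with the major trimeric antenna LHCII made of LHCB1, LHCB2 and LHCB3 types and with CP29, CP26 and CP24 as minor antennae. The LHCA proteins form a belt on photosystem I, in which LHCA1 pairs with LHCA4 and LHCA2 with LHCA3. In land plants the transcripts of this family are known to be abundant in green leaves and to follow the day and the light.

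LHCA4 (CN01_05G007590), named in the study's table as chlorophyll a-b binding protein 4, lies on chromosome 5 from 48754901 to 48755839 in the assembly ASM812446v1 of the Hainan tall. LHCA2-1 (CN01_02G014270), a putative chlorophyll a-b binding protein tied to LHCA2, lies on chromosome 2 from 56593469 to 56593942. Its model covers 474 bases, and the table calls it a fragment. CAB2 (CN01_03G010640), chlorophyll a-b binding protein 2, is an antenna protein of photosystem II and lies on chromosome 3 from 64573992 to 64574768. The model spans 777 bases, of which 594 are counted as its length. The table calls the models of CAB2 and LHCA4 complete. The counted length of CAB2 is shorter than those of the LHCII genes CAB40, CAB21-1, CAB21-2, CAB151 and LHCB3, which are 795 to 810 bases.

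The order of the 3 genes was the same in 22 of 22 libraries, with LHCA4 above LHCA2-1 and LHCA2-1 above CAB2 in FPKM (fragments scaled to gene length and library size). LHCA4 ranged from 1757 to 7280.5 FPKM and was between the 5th and the 31st most abundant transcript of its library. LHCA2-1 ranged from 1031 to 4555 FPKM, in places 12 to 71. CAB2 ranged from 59.6 to 629 FPKM, in places 137 to 3203, and its count per library was 105 to 1182. The highest library stood 4.1 times above the lowest for LHCA4, 4.4 times for LHCA2-1 and 10.6 times for CAB2.

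LHCA4 carries much of the far-red absorbing chlorophyll of photosystem I in land plants. In the tall, it stood at 2405, 2859.5 and 3071 FPKM at 0 h and at 6192, 6289 and 7078 FPKM at 4 h. At 6 days the tall libraries gave 5860.1, 7062 and 7280.5 FPKM and at 10 days 4907 and 6100.25 FPKM. Every later tall library was thus above every tall library of 0 h. On average LHCA4 went from 2778 ± 340.4 FPKM (SD, n = 3) before salt to 6519.6 ± 486 FPKM (SD, n = 3) after 4 h. The fitted log2 change in the tall was 1.26 (SE 0.22) at 4 h, 1.60 (SE 0.23) at 6 days and 1.25 (SE 0.26) at 10 days.

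In the dwarf, LHCA4 stood at 3560, 4364 and 4403 FPKM at 0 h and at 1757, 2841 and 3437 FPKM at 4 h. All 3 dwarf libraries of 4 h were below those of 0 h, with replicate 1 the lowest of all. The dwarf libraries of 6 days gave 5720.4, 6835 and 6998 FPKM, above all of 0 h, and those of 10 days gave 4373 and 5105 FPKM, which overlapped 0 h. The change at 4 h was −0.65 on the log2 scale (SE 0.24) and did not pass the test (adjusted p = 0.0859, quasi-likelihood test of edgeR with Benjamini-Hochberg adjustment over all genes). It was −0.47 without dwarf replicate 1 of 4 h (adjusted p = 0.225) and −0.83, past the threshold, without replicate 2 (adjusted p = 0.0346). At 6 days LHCA4 rose by 0.97 (SE 0.24, adjusted p = 0.0211), and at 10 days the value was 0.53 (SE 0.29, adjusted p = 0.264).

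LHCA2-1 encodes the LHCA2-type antenna of photosystem I. In the tall, it stood at 1778, 1899 and 2298 FPKM at 0 h, at 2380.4, 2688 and 3226 FPKM at 4 h, at 3668, 3800.2 and 4271 FPKM at 6 days and at 2988 and 3289 FPKM at 10 days. Each later group of the tall lay above 0 h without overlap. The log2 change was 0.49 (SE 0.19) at 4 h, 1.29 (SE 0.20) at 6 days and 1.06 (SE 0.23) at 10 days. At 4 h the level of leaf 3 moved by 0.05 on the log2 scale of FPKM, against 0.60 in leaf 1 and 0.77 in leaf 2.

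In the dwarf, LHCA2-1 stood at 2561, 2646 and 3844 FPKM at 0 h and at 1031, 1147 and 1508 FPKM at 4 h, with no overlap. The dwarf libraries of 6 days gave 3411, 4093 and 4555 FPKM and those of 10 days 2639.6 and 3589 FPKM, and both groups overlapped the control. At 6 days the overlap came from replicate 3 of 0 h alone, which was high. LHCA2-1 fell by 1.19 on the log2 scale at 4 h (SE 0.21, adjusted p = 0.00191 by edgeR) and rose by 0.85 at 6 days (SE 0.21, adjusted p = 0.0216). At 10 days the value was 0.59 (SE 0.25, adjusted p = 0.153).

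CAB2 is, by its name, a protein of the major antenna of photosystem II. In the tall, it stood at 394, 442 and 629 FPKM at 0 h and at 159.8, 177 and 200.6 FPKM at 4 h. The tall libraries of 6 days gave 224, 334 and 433 FPKM and those of 10 days 360.5 and 522 FPKM. The libraries of 4 h were all below those of 0 h, and those of 6 and 10 days overlapped them. The log2 change was −1.41 (SE 0.24) at 4 h, −0.27 (SE 0.23) at 6 days and 0.32 (SE 0.28) at 10 days.

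In the dwarf, CAB2 stood at 326, 494 and 496 FPKM at 0 h and at 59.6, 94.2 and 107 FPKM at 4 h. At 6 days the dwarf libraries gave 245, 247 and 381 FPKM and at 10 days 158.6 and 167 FPKM. The libraries of 4 h and of 10 days were below all libraries of 0 h. CAB2 fell by 2.19 on the log2 scale at 4 h (SE 0.26, adjusted p = 6.46e-05 by edgeR), from a mean of 439 ± 97.7 FPKM (SD, n = 3) to 86.8 ± 24.4 FPKM (SD, n = 3). The value was −0.10 at 6 days (SE 0.26, adjusted p = 0.854) and −0.83 at 10 days (SE 0.31, adjusted p = 0.102). The dwarf comparison of 10 days is between flow cells. With the flow cell left out of the fit it was −1.12 (adjusted p = 0.0117), and without dwarf replicate 2 of 0 h it was −1.0 (adjusted p = 0.0492).

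**Figure D1:**
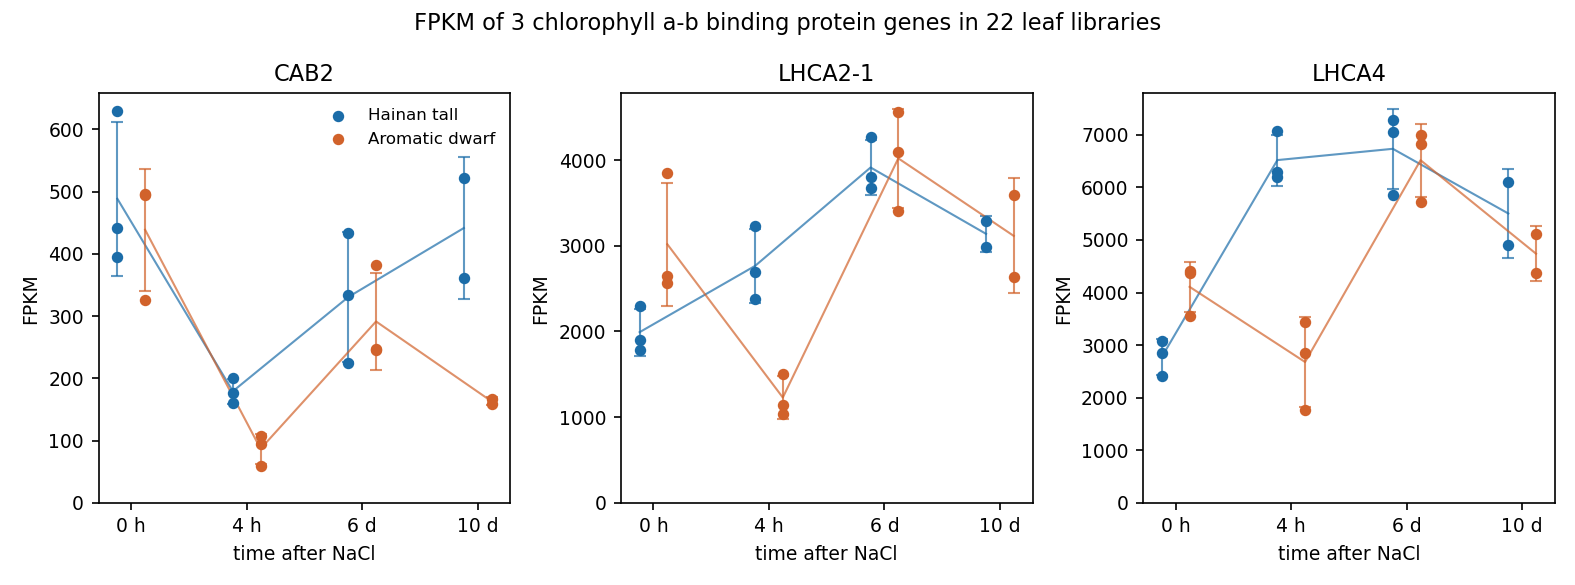
FPKM of the 3 genes in each of 22 leaf libraries (points) against time after NaCl, with the mean and SD of each group, for the Hainan tall and the Aromatic dwarf. At 4 h the tall libraries of LHCA4 (6192 to 7078 FPKM) lie above and the dwarf libraries (1757 to 3437 FPKM) below their own 0 h values, while CAB2 is lower at 4 h in both varieties.

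Of the 3 genes, 2 were therefore called lower in the dwarf at 4 h, where 7.23% of all genes tested were called lower. At 6 days 2 were called higher, against 4.36% of all genes. At 10 days edgeR called 0 of 3, against 4.03% of all genes higher and 3.97% lower. At an unadjusted p under 0.05 the count was 2, and DESeq2 also called 0. The calls of LHCA2-1 and LHCA4 at 6 days were lost when dwarf replicate 1 of 0 h (0.76, adjusted p = 0.0762, and 0.87, adjusted p = 0.0734) or dwarf replicate 1 of 6 days (0.78, adjusted p = 0.142, and 0.85, adjusted p = 0.161) was left out, and that of LHCA2-1 also without dwarf replicate 2 of 0 h (0.75, adjusted p = 0.0643). With limma on log2(FPKM + 1) both 6-day values missed the threshold (0.60, adjusted p = 0.0536, and 0.71, adjusted p = 0.0511), as they did with only the dwarf libraries fitted (0.97, adjusted p = 0.0743, and 1.08, adjusted p = 0.0821). The calls of LHCA2-1 and CAB2 at 4 h held whichever library was left out, but that of LHCA2-1 was lost with only the dwarf libraries fitted (−1.07, adjusted p = 0.0621).

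By the levels alone, all 3 genes were below 0 h without overlap in the dwarf at 4 h, as were 15.3% of all genes tested. In the dwarf LHCA4 was above without overlap at 6 days (6.70% of all genes) and CAB2 was below at 10 days (42.7%). In the tall, LHCA4 and LHCA2-1 were above 0 h without overlap at 4 h (17.7%), 6 days (7.82%) and 10 days (12.9%), and CAB2 was below at 4 h (17.9%). The tall course was used in choosing the genes, and nothing is read from its shares.

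The order of the 8 groups differed among the genes. For LHCA4 the dwarf at 4 h (2679 FPKM on average) and the tall at 0 h were lowest and overlapped. The next step, to the dwarf at 0 h (4109 FPKM), was without overlap, and from there each group overlapped its neighbour up to the tall at 6 days (6734 FPKM). For LHCA2-1 the dwarf at 4 h (1228.5 FPKM), the tall at 0 h (1991 FPKM) and the tall at 4 h (2765 FPKM) did not overlap. The tall at 4 h overlapped the dwarf at 0 h, which was followed by both varieties at 10 days, each overlapping its neighbour. Both varieties at 6 days were highest and overlapped, above the tall at 10 days. For CAB2 the dwarf at 4 h was lowest and separate from the dwarf at 10 days (163 FPKM), which overlapped the tall at 4 h (179 FPKM). The other 5 groups, from 291 to 488 FPKM, each overlapped the next. All 3 genes were thus lowest in the dwarf at 4 h.

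The varieties were compared at each time. At 0 h the tall was below the dwarf by 0.59 on the log2 scale for LHCA4 (SE 0.23) and by 0.55 for LHCA2-1 (SE 0.20), without overlap of the libraries, and CAB2 overlapped (0.21, SE 0.23). At 4 h all 3 genes were higher in the tall without overlap, LHCA4 by 1.31 (SE 0.23), LHCA2-1 by 1.13 (SE 0.20) and CAB2 by 0.99 (SE 0.24). At 6 days all 3 overlapped, with values of −0.11 to 0.04, where 5.47% of all genes were higher and 6.10% lower without overlap. At 10 days CAB2 alone was without overlap, at 360.5 and 522 FPKM in the tall against 158.6 and 167 FPKM in the dwarf (1.36, SE 0.29). Over all genes tested, the share without overlap was 8.13% lower in the tall at 0 h, 10.2% higher at 4 h and 28.6% higher at 10 days, where each group has 2 libraries. Within a flow cell, without a fit, the difference at 4 h of CAB2 was 0.85 on AV and 1.10 on AW, and that of LHCA4 was 1.27 and 1.36. LHCA2-1 was 1.16 higher in the tall on AW, and its value on AV lay between those of CAB2 and LHCA4. On AV 2 tall libraries stood against 1 of the dwarf, and on AW 1 against 2, so each value rests on 1 library on 1 side.

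The difference at 4 h was made up differently in the 3 genes. For LHCA4 every tall leaf rose (by 1.01 to 1.56 on the log2 scale of FPKM, leaf against the same leaf at 0 h) while the dwarf leaves moved by −1.02, −0.36 and −0.62. For CAB2 the leaves of both varieties went down, by −1.98 to −1.14 in the tall and −3.06 to −1.79 in the dwarf. The change from 0 h in the tall minus that in the dwarf was 1.90 (SE 0.33) for LHCA4, 1.68 (SE 0.29) for LHCA2-1 and 0.78 (SE 0.34) for CAB2 at 4 h. At 6 days the same difference was 0.62 (SE 0.33), 0.44 (SE 0.29) and −0.17 (SE 0.35), and at 10 days 0.72 (SE 0.35), 0.48 (SE 0.31) and 1.15 (SE 0.37). These values carry no test, since the genes were chosen for them.

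**Figure D2:**
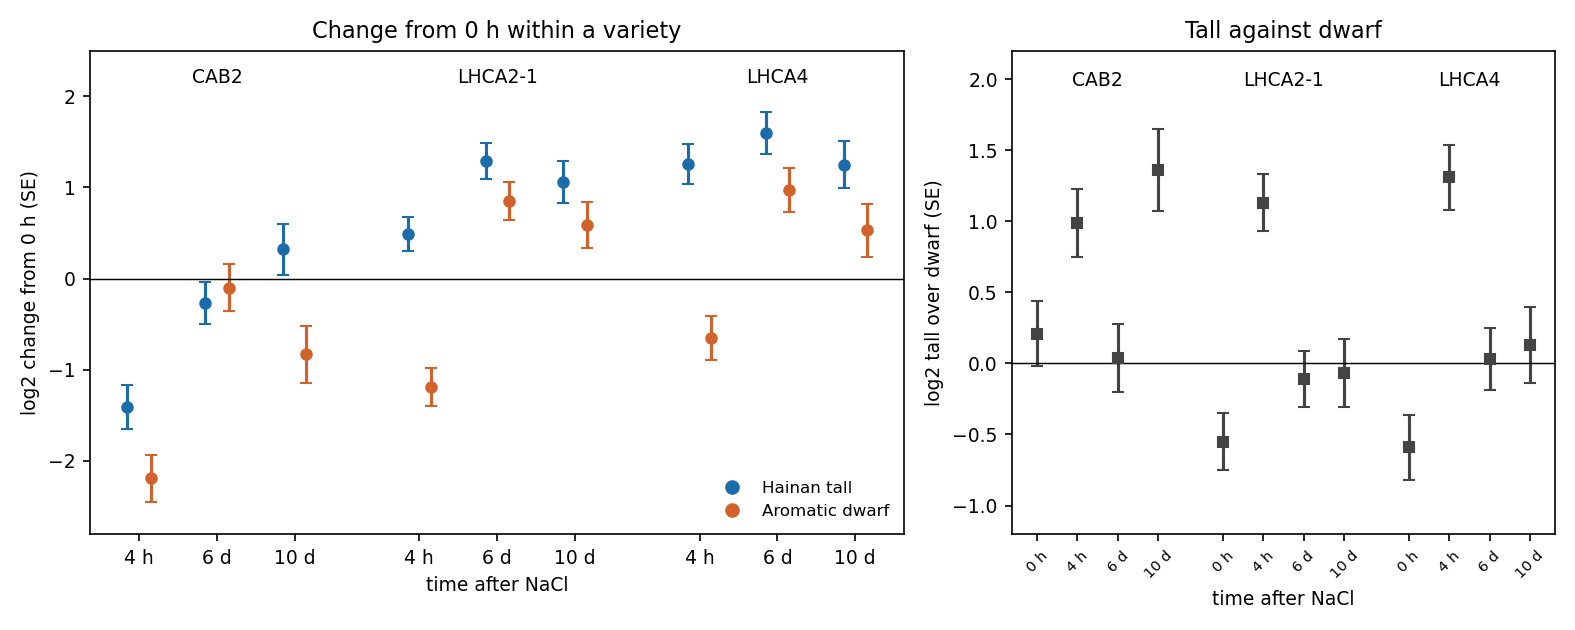
Fitted log2 changes from 0 h in the tall and the dwarf (left) and log2 difference of tall over dwarf at each time (right) for the 3 genes, with bars of 1 SE. At 4 h the tall and dwarf points of LHCA4 (1.26 and −0.65) and LHCA2-1 (0.49 and −1.19) lie on opposite sides of 0, and at 6 days the differences between the varieties are −0.11 to 0.04.

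The study's table held 12 other genes of the light-harvesting family, among them LHCA3, the LHCII genes CAB40, CAB21-1, CAB21-2, CAB151 and LHCB3, and the minor antennae CP29, CP26 and CP24. The table was chosen on the tall libraries, so that comparisons of the varieties over its genes are not independent of the choice. In the dwarf at 4 h, 9 of the 12 fell and 3 did not pass the test, with a median of −1.18 on the log2 scale against 0.00 over all genes. Over all genes 7.23% were called lower. The table held genes chosen for a change over time or a high level, so all genes tested are not a like set for its counts. LHCA2-2, the other LHCA2 copy, fell by 3.06 (SE 0.40, adjusted p = 0.000141), LHCA3 by 1.21 (SE 0.19, adjusted p = 0.000664) and LHCB3 by 1.22 (SE 0.22, adjusted p = 0.00166). CAB40, which had the highest mean FPKM of the LHCII genes in every group, gave −0.58 (SE 0.23, adjusted p = 0.105). When dwarf replicate 3 of 4 h was left out, 5 of the 12 were called. Among all 15 genes CAB2 had the second lowest value, LHCA2-1 was in place 8 and LHCA4 in place 12 from the lowest.

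In the tall, whose time course chose the table, values of the 12 genes are a description with no test. At 4 h they had a median of 0.03 on the log2 scale and ran from −1.21 (LHCA2-2) to 0.46. LHCA4 had the highest and CAB2 the lowest value of the 15 genes. At 6 days 7 of the 12 rose in the dwarf (4.36% of all genes were called higher), with a median of 0.77. LHCB5-1, a CP26 protein, rose by 1.31 in the dwarf (SE 0.19, adjusted p = 0.00178 by edgeR). The dwarf count was 1 without dwarf replicate 1 of 6 days and 4 without replicate 2, and 2, 3 and 4 without dwarf replicates 1, 2 and 3 of 0 h. In the tall the median was 0.64 at 6 days (0.13 to 1.53) and 0.45 at 10 days (lowest −0.13, for LHCB4-2). In the dwarf edgeR called 0 of 12 at 10 days, where 4.03% of all genes were called higher and 3.97% lower. At an unadjusted p under 0.05 the count was 4. DESeq2 called 3 of the 12, and over all 18840 genes 1042 higher and 977 lower.

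The 12 others were set between the varieties at 4 h in the same way. All 12 were higher in the tall without overlap, as were 10.2% of all genes tested. Their median was 1.12 on the log2 scale, with a range of 0.74 to 1.41. Of them, 9 were called, where 0.717% of all genes were called higher. Since the tall libraries also chose the table, nothing is read from that excess. LHCB5-1 differed by 1.25 (SE 0.18), LHCA3 by 1.15 (SE 0.18) and LHCB4-2, a CP29 protein, by 1.12 (SE 0.21). The count of 9 rested on single libraries: it was 5, 2 and 2 without tall replicates 1, 2 and 3 of 4 h, and 0, 8 and 0 without dwarf replicates 1, 2 and 3 of 4 h. It was also 0 when only the 6 libraries of 4 h were fitted. The values of LHCA4, LHCA2-1 and CAB2 at 4 h were in places 3, 8 and 13 from the highest of the 15, within the range of the others.

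At 0 h, 6 days and 10 days edgeR and DESeq2 called 0 of the 12 between the varieties, where 0.409%, 0.0265% and 0.0743% of all genes were called by edgeR. At an unadjusted p under 0.05 the counts were 1, 0 and 1. At 10 days CAB2 had the highest value of the 15, and CAB21-2, another LHCII gene, followed at 1.20 (SE 0.44, adjusted p = 0.271). The change from 0 h in the tall minus that in the dwarf was above 0 for all 12 at 4 h, with a median of 1.06 against 0.03 over all genes. EdgeR called 0 of the 12 in this difference (0.0584% of all genes, or 11, and 1 gene with the leaf as a block), 11 had an unadjusted p under 0.05 and DESeq2 called 6. The smallest adjusted p was 0.0914, for LHCA3 (1.18, SE 0.25), LHCB3 (1.31, SE 0.29) and LHCB5-1 (1.13, SE 0.25). The edgeR count was 1 without tall replicate 2 of 0 h and 4 without dwarf replicate 1 of 0 h.

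**Figure D3:**
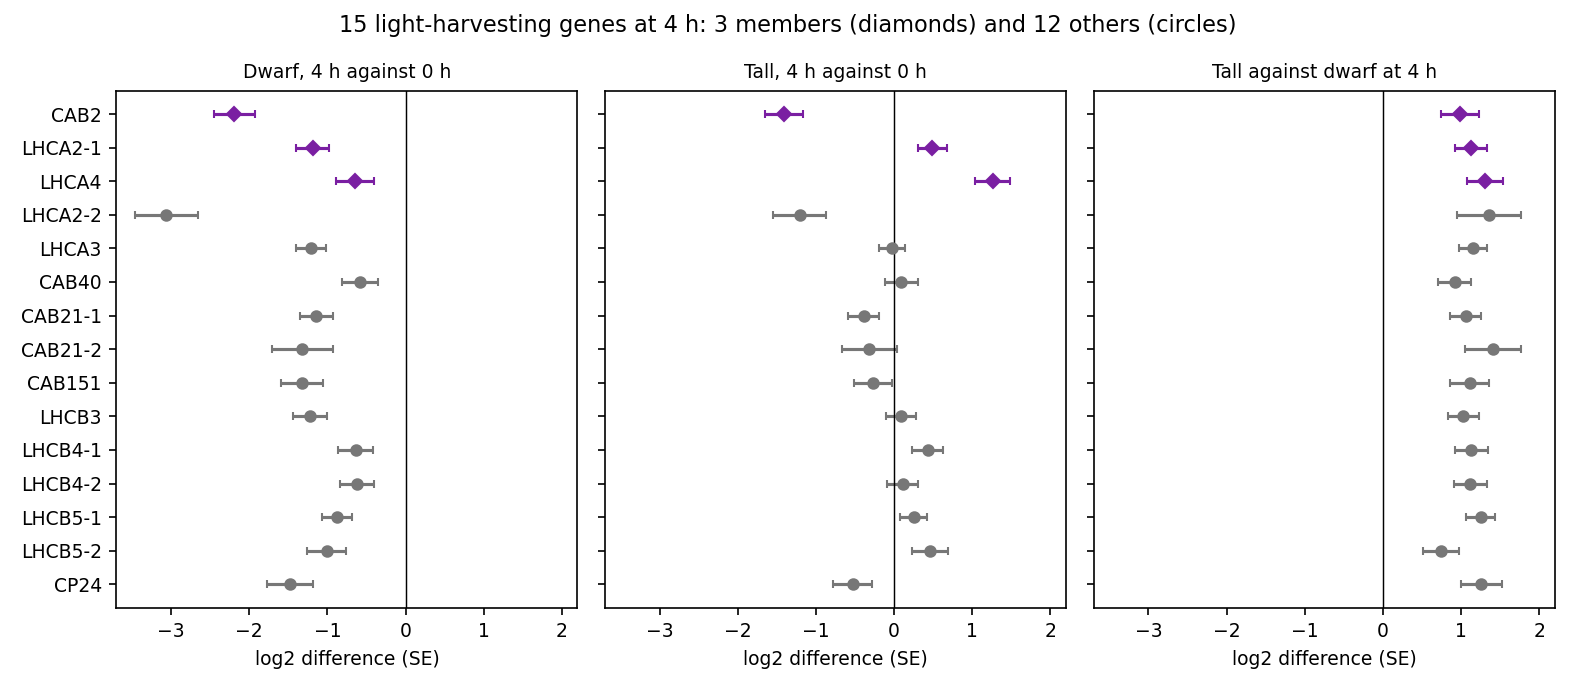
Log2 differences with bars of 1 SE for 15 light-harvesting genes, the 3 chosen genes as diamonds and the 12 others as circles, for the dwarf at 4 h against 0 h, the tall at 4 h against 0 h and the tall against the dwarf at 4 h. The tall against the dwarf lies between 0.74 and 1.41 for every gene, while the tall change runs from −1.41 (CAB2) to 1.26 (LHCA4).

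The share of LHCA4 was taken among the 15 light-harvesting genes of the study's table, which need not be the whole family. Of the summed count of the 15 genes, LHCA4 took 6.8 to 9.3% in the tall at 0 h and 14.6 to 17.3% in the tall at 4 h. The tall course was used in choosing the genes, so nothing is read from that rise. In the dwarf the shares were 10.0 to 12.2% and 11.3 to 15.8%, which overlapped. Per length, LHCA4 stood 2.49 to 3.23 times above LHCA3 in the tall at 0 h and 5.75 to 7.68 times above it at 4 h. In the dwarf it stood 3.81 to 4.34 times and 5.28 to 7.55 times above it. The size of this ratio rests on the models, since the listed length is 1965 bases for LHCA3 and 756 for LHCA4. By expected counts, the tall libraries of 0 h gave 5806, 6571 and 7444 for LHCA4 and 6251, 5457 and 7277 for LHCA3. The ratio of LHCA4 to LHCA3 was thus higher at 4 h in both varieties, without overlap. Its tall values are not independent of the choice, and no share over all genes was worked out for such a ratio. The 15 genes together held 1.16 to 1.62% of all counts in the dwarf at 4 h, and 2.30 to 4.24% in every other group.

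Reads of the family were split between copies, which bears on CAB2 most. Expected counts that share no reads are whole numbers. The count of CAB2 had a fraction (over 0.005 from a whole number) in 22 of 22 libraries, and its sum with CAB40, CAB21-1, CAB21-2, CAB151 and LHCB3 came out whole in all 22 (within 0.03). CAB151 had a fraction in 2 libraries and LHCB3 in 3, and without them the sum was whole in 18, so in most libraries the fractions were shared with CAB40, CAB21-1 and CAB21-2. CAB2 was 0.58 to 1.97% of that sum. The 6-gene sum changed by −0.92 (SE 0.22, adjusted p = 0.0105 by edgeR) in the dwarf and by −0.11 (SE 0.20) in the tall at 4 h, against −2.19 and −1.41 for CAB2 alone. At 10 days the sum was 0.17 higher in the tall than in the dwarf (SE 0.24), against 1.36 for CAB2. How many of the reads of CAB2 were its own cannot be read from the counts, so its values are uncertain to that extent.

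The LHCA2 pair was less open to such a split. LHCA2-1 and LHCA2-2 summed to a whole number in 22 of 22 libraries (within 0.01), and LHCA2-2 was 0.69 to 6.68% of the pair. The pair changed by −1.22 (SE 0.21, adjusted p = 0.00166) in the dwarf at 4 h and by 0.85 (SE 0.21, adjusted p = 0.0224) at 6 days, close to LHCA2-1 alone. LHCA2-2 held 0.69 to 1.14% of the pair at 4 h over both varieties, against 1.64 to 4.64% at 0 h and 4.53 to 6.68% at 10 days. The count of LHCA4 had a fraction in 16 libraries. No set of up to 8 listed family genes that held LHCA4 gave a whole sum in more than 12, and larger sets were not tried.

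**Figure D4:**
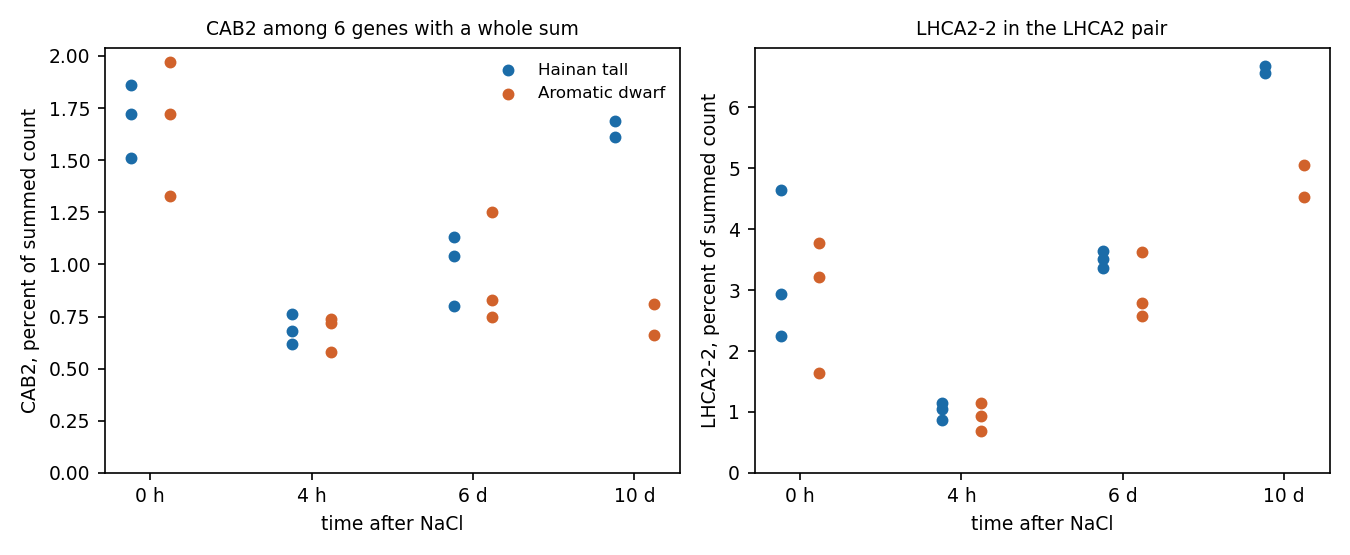
Percent of the summed count held by CAB2 among the 6 genes whose counts sum to whole numbers (left) and by LHCA2-2 in the LHCA2 pair (right), per library, by variety and time after NaCl. Both shares are low at 4 h in both varieties (0.58 to 0.76% and 0.69 to 1.14%), and at 10 days the share of CAB2 is 1.61 to 1.69% in the tall and 0.66 to 0.81% in the dwarf.

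Genes of the photosystems were counted in the same way, from lists of the same table. In the dwarf, of 10 subunits of photosystem I, 7 fell (7.23% of all genes) and 1 rose (5.81%) at 4 h. At 6 days 9 rose (4.36%) and 1 fell (3.61%). In the dwarf at 4 h PSAK, a small subunit at the edge of the complex, fell by 2.14 (SE 0.31, adjusted p = 0.000381) and PSAG by 1.38 (SE 0.21, adjusted p = 0.000656). The exception at both times was PSAE-A, named here after its values were seen, at 1.38 (SE 0.32, adjusted p = 0.00978) and −1.15 (SE 0.33, adjusted p = 0.0425). Of 10 genes of photosystem II, 5 fell in the dwarf at 4 h and the other 5 did not pass the test, and 9 rose at 6 days. In the dwarf PSBY-1 fell by 1.45 (SE 0.28, adjusted p = 0.00323) at 4 h and rose by 1.96 (SE 0.27, adjusted p = 0.00178) at 6 days. The count of photosystem I genes that fell in the dwarf at 4 h was 3 to 5 without any 1 of the dwarf libraries of 0 h and 4 h other than replicate 2 of 4 h (5 without replicate 1 of 0 h, 4 without replicate 2 of 0 h, 3 without replicate 3 of 0 h and without replicates 1 and 3 of 4 h), and that of photosystem II was 3 without replicate 3 of 4 h. At 6 days 3 and 5 rose without dwarf replicate 1 of 6 days. With only the dwarf libraries fitted, 3 and 0 fell at 4 h and 6 and 9 rose at 6 days. The call of PSAE-A at 6 days was lost without 5 of the 6 libraries and that at 4 h without dwarf replicate 3 of 4 h. In the tall at 4 h, given as a description, the medians were 0.36 and 0.26. Between the varieties at 4 h, 7 of the 10 genes of photosystem I and 8 of the 10 of photosystem II were called higher in the tall, with medians of 1.06 and 0.95. Over all genes 0.717% were called higher. The tall libraries also chose the table, so nothing is read from that excess. These calls rested on single libraries too. They were 4, 4 and 2 for photosystem I and 4, 5 and 1 for photosystem II without tall replicates 1, 2 and 3 of 4 h, 0 and 0 without dwarf replicate 1 or 3 of 4 h, and 0 and 1 with only the 6 libraries of 4 h.

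These antenna proteins need chlorophyll to be stable. Of 9 genes of chlorophyll metabolism and its control, from the same table, 5 fell in the dwarf at 4 h (7.23% of all genes) and 4 did not pass the test. CAO, the enzyme that makes chlorophyll b, fell by 2.86 in the dwarf (SE 0.25, adjusted p = 1.75e-06), and its value in the tall was −1.74 (SE 0.23). CHLH, a subunit of magnesium chelatase, fell by 1.82 in the dwarf (SE 0.26, adjusted p = 0.000259), and its value in the tall was −1.34 (SE 0.23). Between the varieties at 4 h 1 of the 9 was called, CRD1 of the chlorophyll pathway (0.73, SE 0.15), where 0.717% of all genes were called higher. That count was 0 without each of the 6 libraries of 4 h other than dwarf replicate 2, and 0 with only those 6 libraries.

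Over the 22 libraries, LHCA4 and LHCA2-1 varied together (r = 0.86 of log2(CPM + 1)), while CAB2 followed LHCA2-1 (r = 0.59) more than LHCA4 (r = 0.32). These correlations describe libraries that share varieties, times and leaves, and carry no test. Among named genes of the study's table, those most like LHCA4 were PGR5-like protein 1A (r = 0.95), which takes part in cyclic electron flow around photosystem I in Arabidopsis, PSAH (r = 0.94) and PSBQ (r = 0.94). Those most like LHCA2-1 were LHCB3 (r = 0.96), PSBT (r = 0.94) and CRD1 (r = 0.93). For CAB2 they were a class I heat shock protein (r = 0.92), a putative holocarboxylase synthetase (r = 0.89) and a putative mediator subunit 26c (r = 0.87), none of them from the photosystem lists. Of the 10 most similar among all genes tested, 7 were in the table for LHCA4, 8 for LHCA2-1 and 2 for CAB2. With the variety means taken off, PSAL took the place of PSBQ for LHCA4, LHCB5-1 and LHCA3 those of PSBT and CRD1 for LHCA2-1, and another class I heat shock protein and the transcription factor bHLH041 those of the last pair for CAB2.

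Markers of leaf tissues were also summed, and not all of them differed at 4 h. The markers were genes of the same table, which the tall libraries chose. Those of green tissue were all genes of photosynthesis, and PSBO and PSBP also stand in the photosystem II list. The green sum is therefore not independent of the counts above. All 6 markers of green tissue were above 0 in every library. Their summed level was 17201 to 22363 FPKM in the dwarf at 4 h, against 27860.1 to 35510.0 FPKM in the dwarf at 0 h. In the tall it was 37462 to 39290.1 FPKM at 4 h and 24530.7 to 31416.7 FPKM at 0 h. Of the 6, 4 fell in the dwarf at 4 h (7.23% of all genes). Between the varieties at 4 h 3 were called higher in the tall (0.717% of all genes). The count was 2, 2 and 1 without tall replicates 1, 2 and 3. It was 0 without dwarf replicate 1 or 3, and 0 with only the 6 libraries of 4 h. The 2 xylem markers summed to 444 to 567 FPKM in the dwarf at 4 h against 127 to 423 FPKM at 0 h. In the tall they summed to 305 to 431 FPKM at 4 h, which overlapped 272.4 to 462.8 FPKM at 0 h. The 4 epidermis markers summed to 878.5 to 1048 FPKM in the dwarf at 4 h against 857 to 1203 FPKM at 0 h, and to 534 to 735 FPKM in the tall at 4 h against 959 to 1274 FPKM at 0 h. At 4 h the epidermis sum was thus lower in the tall than in the dwarf without overlap, and 2 of the 4 were called lower (0.340% of all genes), with a median of −0.94 on the log2 scale. Both calls were lost without each of the 6 libraries other than dwarf replicate 2, and with only those 6 libraries. KCS10 of this list, named after its values were seen, gave 0.11 (SE 0.26) between the varieties and fell by 0.95 in the dwarf at 4 h (SE 0.29, adjusted p = 0.0367). The 2 phloem markers summed to 102 to 243 FPKM in the dwarf at 4 h against 57.5 to 137 FPKM at 0 h. In the tall they summed to 109.9 to 189 FPKM at 4 h and 40.2 to 142.8 FPKM at 0 h, so the varieties overlapped at 4 h. Of the xylem and of the phloem markers, edgeR called 0 of 2 in the dwarf at 4 h (5.81% of all genes higher, 7.23% lower). Between the varieties at 4 h it also called 0 of 2 in each list. Without dwarf replicate 1 of 0 h, 2 xylem markers were called higher in the dwarf at 4 h. In bulk leaf RNA, fewer green cells and less RNA per cell cannot be told apart, and the part of tissue make-up in the result was not tested.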

How the data were processed

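RNA-seq was run on 22 leaf samples. The members and the gene lists were chosen with earlier results of these data known. Per the study's methods, the authors aligned clean single-end reads of 50 bases with Bowtie and estimated expected counts with RSEM. FPKM values of the same run were deposited beside the expected counts. BWA was also used on scaffolds, and its version, like those of the other tools, is not given in the sources used here. Each deposited file holds genes with a count above 0 in that library, and other genes were set to 0. The listed length was a multiple of 3 for all 59 list genes, so it is a coding length.

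Expected counts were rounded, filtered with filterByExpr (18840 genes) and scaled by TMM. In edgeR 4.0.16 (R 4.3.3), 1 quasi-likelihood fit held the 8 groups and the flow cell over all 22 libraries, with 13 residual degrees of freedom and a common biological coefficient of variation of 24%. The flow cell term called 6 genes. A standard error is the size of the log2 change over the root of its F, and a gene was called where the Benjamini-Hochberg value was under 0.05. Samples were treated as independent, and p-values measure the spread between these samples, which came from 3 seedlings per the study's methods.

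The methods give the leaf as shared by samples of 1 number. Deviations of same-leaf libraries correlated by 0.23 on average in the tall (12 of 15 pairs above 0.1) and by 0.10 in the dwarf (8 of 15 pairs). At 6 and 10 days the median of all genes was 0.23 to 0.34 below 0 h on the FPKM scale, against 0.02 to 0.05 below with TMM, so changes are read from the fit. Coordinates came from RefSeq's table of ASM812446v1 by locus tag, and 5355 of 5355 genes with coordinates in the study's tables matched. Likeness is Pearson's r of log2(CPM + 1) among named genes of the study's table at a mean of at least 10 FPKM. Of the other light-harvesting genes, LHCA2-2 and up to 3 with the smallest and the largest adjusted p were named, and up to 2 of each other list. Alternatives left out the flow cell, the filter, the groups not compared or 1 library at a time, added a block for the leaf, or replaced the tool by limma 3.58.1 (log2(FPKM + 1) and log2(FPKM + 0.1)) or DESeq2 1.42.0. Sums over copies and values within a flow cell were added after the data were seen. The edgeR test was tried on simulated counts, which held no shared leaf and no flow cell effect, and nothing is read from that trial here. Tables and figures were made in Python 3.11.15 with numpy 2.4.6, pandas 2.3.3 and matplotlib 3.10.9.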

Additional observations from a re-analysis of the deposited data

Results flagged for a closer look

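At 4 h LHCA2-1 moved up in every tall leaf and down in every dwarf leaf, and the fitted change in the tall minus that in the dwarf was 1.68. In tall leaf 3 the move was 0.05 on the log2 scale of FPKM and between flow cells. That is within the spread of replicates (SD 0.24 of log2(CPM + 1)). LHCA4 also moved up in every tall leaf and down in every dwarf leaf, with a difference of 1.90. Neither difference was tested, because the genes were chosen for it. LHCB4-2, a CP29 protein, had log2 changes on opposite sides of 0 in the leaves of the varieties at 10 days on the FPKM scale, −0.02 and −0.18 in the tall and 0.32 and 0.29 in the dwarf. The median of all genes in the tall was itself 0.23 to 0.25 below 0 h on that scale, so no direction is read from the tall leaves. The fit gave a difference of −0.39 (SE 0.32) that did not pass the edgeR test (adjusted p = 0.804).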

How the results depend on the processing

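Over all settings other than a library left out, 294 values of the 3 genes were counted as unchanged. Tested values kept their side of the threshold, and the rest kept their size within the spread of replicates. A tested value that missed the threshold in both fits counted as unchanged even where its direction differed. Of the other values, 7 lost and 3 gained a call, 12 moved further and 1 reversed. With the leaf as a block no call of the 3 genes changed (in the dwarf at 4 h −2.23 for CAB2, −1.19 for LHCA2-1 and −0.61 for LHCA4). Under that block the count of the 12 other light-harvesting genes called in the tall at 10 days was 2 in place of 5, and over all genes the difference of changes at 4 h went from 11 to 1. It changed no other count of the 12 genes, and none over all genes in the dwarf, by over 1.5 times. Counts in the tall restate in part how the table was chosen and are given for their range only. LHCA4 in the dwarf at 4 h passed the threshold without the flow cell (−0.66, adjusted p = 0.0457) and with DESeq2 (−0.65, adjusted p = 0.0423). With only the dwarf libraries fitted, LHCA2-1 at 4 h (−1.07, adjusted p = 0.0621) and at 6 days (0.97, adjusted p = 0.0743) and LHCA4 at 6 days (1.08, adjusted p = 0.0821) lost their calls, with fewer samples in the fit. With limma on log2(FPKM + 1) and log2(FPKM + 0.1), LHCA2-1 at 6 days was 0.60 and 0.60 (adjusted p = 0.0536 and 0.0556) and LHCA4 0.71 and 0.71 (adjusted p = 0.0511 and 0.0548) in the dwarf, while in the tall they were 0.98 and 1.28 under both. CAB2 in the dwarf at 10 days was −1.12 without the flow cell and passed the threshold. Within flow cell AV CAB2 in the dwarf at 6 days was −0.45, from 1 library against 3 of 0 h. At 6 days the tall over the dwarf within AV and AW was 0.50 and −0.32 for CAB2, and −0.23 and 0.30 for LHCA4. The tall and dwarf libraries there were 2 against 1 on AV and 1 against 2 on AW. In the 6-gene sum whose counts came out whole, the value in place of CAB2 was −0.11 in the tall at 4 h, 0.51 in the tall at 6 days, 0.17 in the tall over the dwarf at 10 days, and −0.01, reversed from 1.15, in the change in the tall minus that in the dwarf at 10 days. In the dwarf that sum gave 0.71 at 6 days (adjusted p = 0.0529 by edgeR) and 0.33 at 10 days (adjusted p = 0.454). The values of CAB2 alone there were −0.10 and −0.83, so the direction differed, with no call in either. The other causes were not tested.

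Without 1 library each, values ran from −0.83 to −0.47 for LHCA4 in the dwarf at 4 h, 0.75 to 1.07 for LHCA2-1 and 0.85 to 1.11 for LHCA4 in the dwarf at 6 days, and −1.0 to −0.73 for CAB2 in the dwarf at 10 days. For LHCA2-1 the tall over the dwarf at 10 days ran from −0.30 to 0.20. At 10 days the change in the tall minus that in the dwarf ran from 0.81 to 1.40 for CAB2 and 0.25 to 0.73 for LHCA2-1. Counts of the 12 other genes ran from 5 to 9 in the dwarf at 4 h, 1 to 9 at 6 days and 0 to 1 at 10 days, 0 to 1 in the tall at 4 h and 0 to 4 at 10 days, 0 to 8 in the tall over the dwarf at 4 h and 0 to 4 in the difference of changes at 4 h.

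Of the 12 other genes, 2, 2 and 2 were called in the dwarf at 6 days with both limma fits and with only the dwarf libraries, 2 and 3 in the dwarf at 10 days without the flow cell and with DESeq2, 2 and 1 in the tall at 10 days with limma, 0 in the tall over the dwarf at 4 h with only those libraries and 6 in the difference of changes at 4 h with DESeq2. Over all genes, 2457 were called in the dwarf at 4 h, 1502 at 6 days and 1507 at 10 days. With only the dwarf libraries these were 618, 484 and 436, and without the flow cell 2773 at 6 days and 3514 at 10 days. The 2 limma fits called 2630 and 2556 at 6 days, of which 367 and 324 were higher, against 821 in the edgeR fit. At 10 days they called 391 and 325 genes higher and 1750 and 1748 lower. Leaving out 1 library gave 968 to 2844, 123 to 1808 and 81 to 1944. DESeq2 called 180 genes higher and 222 lower in the tall at 0 h against 38 and 39 by edgeR, 379 and 228 at 4 h against 135 and 64, 158 and 75 at 10 days against 12 and 2, and 193 and 90 in the difference of changes at 4 h against 7 and 4. Without 1 library each, genes called between the varieties ran from 2 to 354 at 0 h, 5 to 315 at 4 h, 0 to 3 at 6 days and 0 to 1 at 10 days. With only the libraries of 10 days, 188 genes were called higher and 93 lower in the tall, against 12 and 2. With 3 or 2 samples a group, standard errors of 0.19 to 0.31 for changes of the 3 genes limit what could be called.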

Other observations

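Stress-linked relatives of the antenna proteins were measured in the same libraries. In the dwarf at 4 h ELIP-1, an early light-induced protein, gave 0.03 on the log2 scale (SE 0.78), ELIP-2 gave −0.54 (SE 0.27) and OHP2, which helps assemble photosystem II in Arabidopsis, gave −0.28 (SE 0.28), with adjusted p-values of 0.207 to 0.986 by edgeR. In the tall, whose time course chose the table, the values were 1.54 (SE 0.77), −0.79 (SE 0.25) and 0.75 (SE 0.27) at 4 h, with no test.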
